A study of Mus musculus with 6 samples.

Results

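Histone lysine methylation is written by methyltransferases, removed by demethylases and recognised by reader proteins, and 49 genes of these 3 kinds, with the Kdm4 demethylases left out, are described here in the pituitary of mice labelled Jmjd2a-/-. The genes were found by the RefSeq accession that each array probe carries, and 47 of the 49 matched at least 1 probe. They held 75 of the 55681 non-control probes. Of these, 70 were among the 36739 probes bright enough to test, and the 47 genes were among 26887 genes and unnamed features tested. Setdb2 and Kmt2a matched no probe through the annotation used and were not analysed here. For each of the 47 genes the brightest probe, on which the values below rest, was well above background on all 6 arrays.

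The KO group consisted of 3 female Jmjd2a-/- mice and the WT group of 3 female Jmjd2a+/+ littermates, all on a C57BL6 background, 8 weeks old and virgin. Bedding soiled by a stud male was used to start the oestrus cycle, and the pituitary was taken 24 h later. RNA of each animal was labelled in 1 colour and hybridised to 1 array. The labels state neither how the allele was made nor whether Jmjd2a was missing in every tissue from conception, and the arrays alone do not separate an effect inside pituitary cells from one of the rest of the body.

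Jmjd2a, also called Kdm4a, removes methyl groups from lysine 9 and lysine 36 of histone H3. The writers of the same positions are the Suv39h, Setdb, Ehmt and Prdm enzymes for H3K9 and the Setd2, Nsd and Ash1l enzymes for H3K36, and several other demethylase families share the substrates of Kdm4a. Methylated H3K9 is bound by HP1 proteins and marks silent chromatin, H3K4 methylation marks promoters and enhancers, H3K27 methylation by Polycomb repressive complex 2 keeps developmental genes off, and H3K36 methylation follows transcribed gene bodies. In the mouse pituitary the demethylase Kdm1a is known to be needed for the late steps by which hormone-producing cells become distinct.

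Levels below are log2 spot intensities relative to the 75th percentile of each array, so that 0 is the brightness of that percentile and 1 unit is a doubling. A difference is the mean of the KO arrays minus that of the WT arrays, given with its standard error (SE, n = 3 each) and judged by limma's moderated test after Benjamini-Hochberg adjustment over all 26887 features. Probes differ in how brightly they hybridise, so levels of different genes were not compared. The 75th percentile itself lay between 234 and 305 intensity units on the KO arrays, against 171 to 313 on the WT arrays. WT replicate 1 had the lowest value and WT replicate 2 the highest. Kdm4a, the targeted gene, had levels of 1.45, 1.20 and 1.36 in KO pituitaries, against 2.14, 1.90 and 1.85 in WT pituitaries. The KO arrays were all lower, at -0.62 ± 0.14 with an adjusted p of 0.238, and over the 10 ways to split the 6 arrays into 3 and 3 the exact permutation p (two-sided) was 0.1, which is the lowest value possible here. The labels do not place this probe relative to the deleted part of the gene, and a second Kdm4a probe was well above background on only 2 arrays. All 9 endocrine marker genes of the anterior pituitary were well above background on all 6 arrays. The lists of markers of dividing cells, neutrophils, Schwann cells, and folliculostellate and stem cells each had their highest mean on WT replicate 3. The endocrine list had its highest mean on WT replicate 1. In bulk tissue such as this, fewer cells of a type and less RNA per cell cannot be told apart.

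Across the 47 genes the KO values tended to lie slightly above the WT values, but no gene passed the test. The number called at an adjusted p under 0.05 was 0, against 0% of all features, and the lowest adjusted p among the 47 was 0.295. At an adjusted p under 0.1 the count was also 0, against 0.0558% of all features. At an unadjusted p under 0.05, 9 of the 47 (19.1%) were higher in KO pituitaries, against 3.89% of all features, and 1 (2.13%), Ezh2, was lower, against 8.92%. All features include 10426 without a gene name, unlike the 47. Among the 16461 named ones 5.18% were higher and 7.72% lower, with a median difference of -0.03. Of the 6722 dimmest features, which held 3 of the 47, 15.2% were lower. The 3 KO values all lay above the 3 WT values for 17 genes (36.2%), against 7.14% of all features, and all lay below them for 5 genes (10.6%), against 13.5%. The median difference was 0.11 over the 47 genes and -0.08 over all features, and 34 of the 47 lay above the median of all features. These shares describe genes chosen with earlier results of these data known, and genes on the same 6 arrays are not independent of each other.

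**Figure D1:**
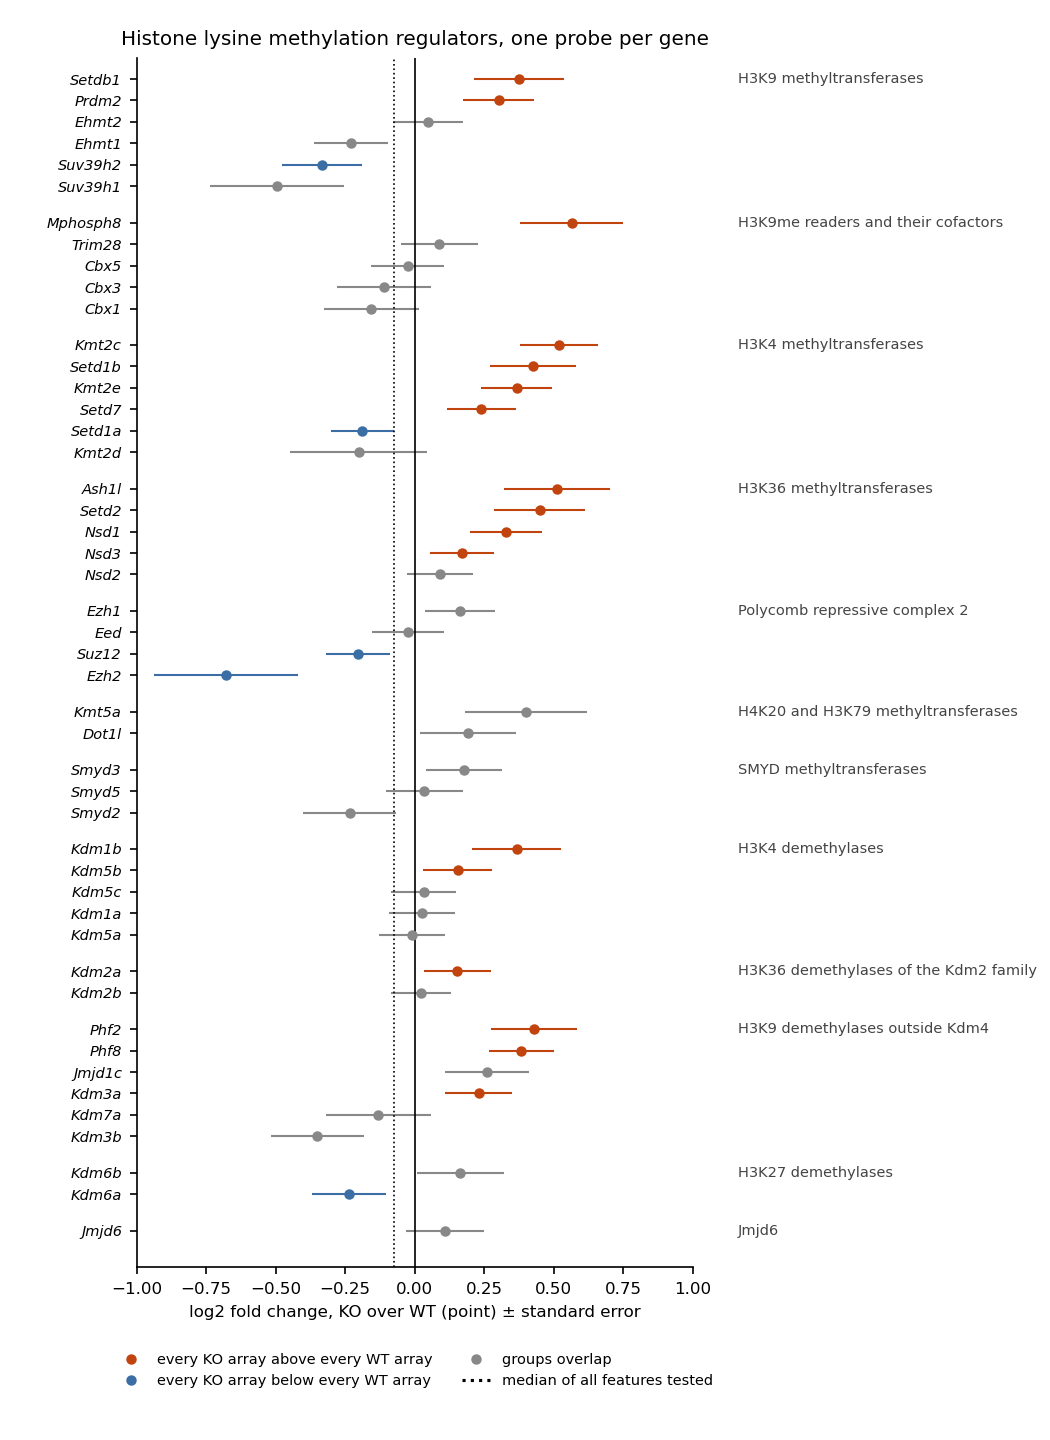
Log2 fold change (KO over WT) of the 47 genes by role, with bars of 1 SE from limma (n = 3 arrays a group). Red marks the 17 genes whose KO values all lie above their WT values, blue the 5 whose KO values all lie below, grey those with overlap, and the dotted line the median of all features, -0.08.

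Those shares moved with the scaling of the arrays. With each array centred on its median instead of its 75th percentile, the median of all features moved to 0.10 and that of the 47 genes to 0.29. The genes with an unadjusted p under 0.05 then numbered 16 higher in KO pituitaries and 0 lower, against 10.5% and 3.11% of all features. The count of genes whose KO values all lay below their WT values, 5 before, was 0 under that scaling. The share of all features is not given for that count, and their median moved up as well. The fall therefore does not show a change particular to the 47 genes. Quantile normalization gave 12 higher and 0 lower, against 6.75% and 5.13% of all features, and the authors' deposited table gave 14 higher and 2 lower of 44, against 7.62% and 6.71%. Relative to the median of all features, the median of the 47 genes stood 0.12 to 0.26 higher under every setting tried. The count of 9 also rested on all 6 arrays: it was 4 without KO replicate 1, 2 without KO replicate 2, 2 without KO replicate 3, 4 without WT replicate 1, 11 without WT replicate 2 and 7 without WT replicate 3. The counts lower in KO pituitaries were 0 without any 1 KO replicate, and 3, 4 and 1 without WT replicates 1, 2 and 3. Each of these fits had 5 arrays and so less to estimate the spread from. The shares of all features in these fits are not given, so the counts do not show a change particular to the 47 genes.

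**Figure D2:**
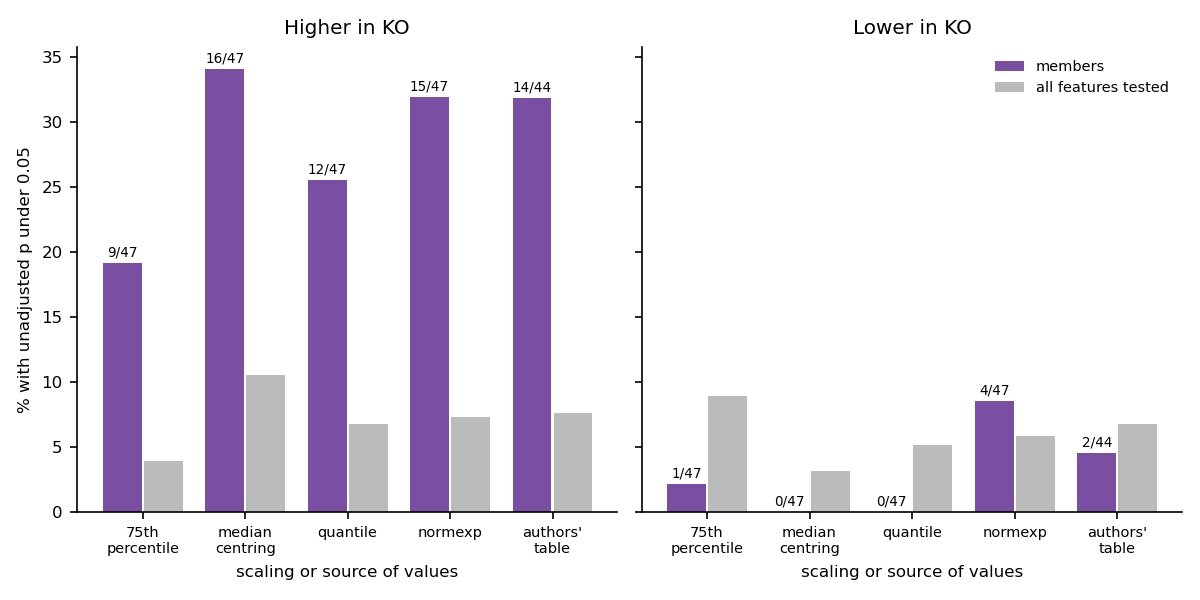
Percent of the 47 genes and of all features tested with an unadjusted p under 0.05, higher and lower in KO pituitaries, under each way of scaling the arrays. The genes higher in KO pituitaries made up 19.1% of the 47 with 75th-percentile scaling, against 3.89% of all features.

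The spread between animals was unequal. The median SD of a gene among the 47 was 0.082 over the KO arrays and 0.166 over the WT arrays, while that of all features was 0.147 over the KO arrays and 0.226 over the WT arrays. For 41 of the 47 genes the KO values were the closer together. WT replicate 1 was the lowest of the 6 arrays for 21 of the 47 genes. This array also had the lowest 75th percentile, and the part of its brightness in these differences was not tested. Shares over all features are not given for the counts of 41 and 21, so neither shows a trait particular to the 47 genes. On the slide, row 1 held 2 arrays of each group and row 2 held 1 of each. The median difference of the 47 genes was 0.08 within row 1 and 0.10 between the 2 arrays of row 2. The 9 genes higher at an unadjusted p under 0.05 were above 0 in both rows, but some were much closer to 0 in row 2, among them Setd2 at 0.09, Setd1b at 0.10 and Phf2 at 0.21.

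**Figure D3:**
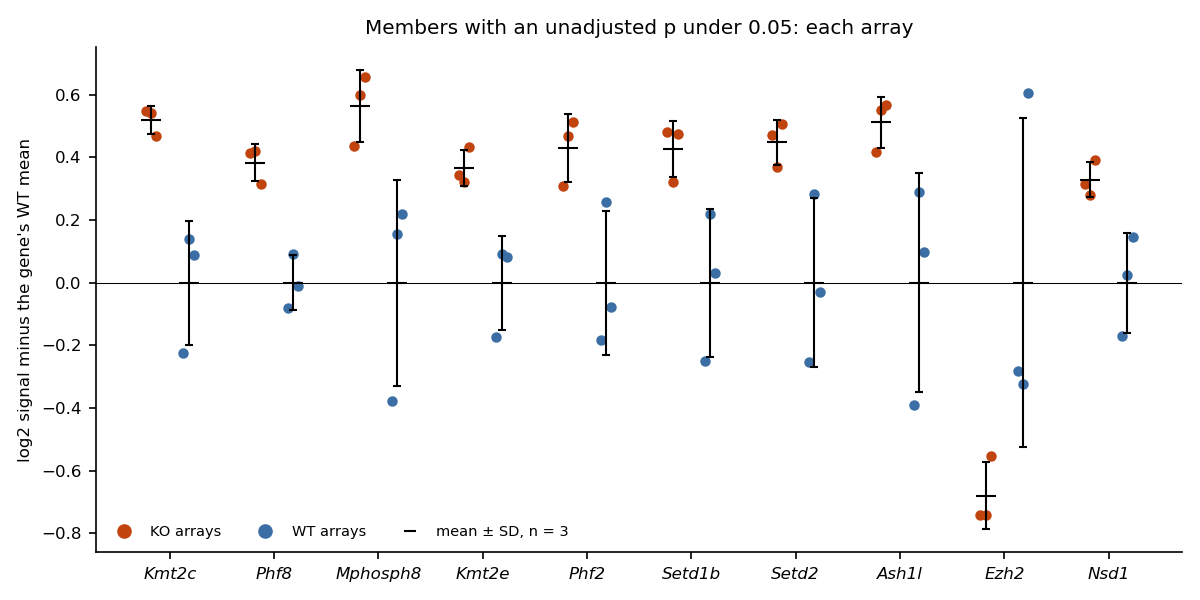
Level on each array (log2, minus the mean of the 3 WT arrays of that gene) for the 10 genes with an unadjusted p under 0.05, KO arrays left of WT arrays, with the mean ± SD (n = 3) in black. The KO points lie above all WT points for 9 genes and below them for Ezh2, and WT points are the more widely spread for all 10.

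The H3K4 methyltransferases held the member with the smallest p. Kmt2c, a catalytic subunit of the complexes that monomethylate H3K4 at enhancers, had levels of 1.86, 1.86 and 1.78 in KO pituitaries, against 1.09, 1.46 and 1.40 in WT pituitaries. The groups did not overlap, the KO values stayed within 0.1 of each other, and the difference was 0.52 ± 0.14 with an adjusted p of 0.295. In linear terms the KO signal was 143% of the WT signal, with a 95% confidence interval of 114 to 180%. Kmt2e, a relative that binds methylated H3K4 and is thought to have little enzyme activity of its own, stood at 2.62, 2.60 and 2.71 in KO pituitaries, against 2.10, 2.36 and 2.36 in WT pituitaries. Its difference was 0.37 ± 0.13 (adjusted p = 0.346), and its other tested probe also read higher, by 0.34. A further Kmt2e probe was well above background on 1 array only and was not tested. Setd1b, an enzyme that trimethylates H3K4 at promoters as part of the COMPASS complex, measured 2.20, 2.04 and 2.20 in KO pituitaries, against 1.47, 1.94 and 1.75 in WT pituitaries, a difference of 0.43 ± 0.15 (adjusted p = 0.355).

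The other members of that group were closer to 0. Setd7, which monomethylates H3K4 and many proteins that are not histones, had levels of 4.19, 4.22 and 4.12 in KO pituitaries, against 3.79, 3.97 and 4.05 in WT pituitaries, without overlap and at 0.24 ± 0.12 (adjusted p = 0.444). Setd1a, the close relative of Setd1b, had the opposite sign, with 0.75, 0.70 and 0.80 in KO pituitaries, against 0.98, 0.86 and 0.99 in WT pituitaries. All its KO values lay below its WT values, at -0.19 ± 0.11 (adjusted p = 0.493). Kmt2d, the partner enzyme of Kmt2c at enhancers, differed by -0.20 ± 0.25 with overlapping groups, and its other tested probe read 0.03. In all, 4 of the 6 tested H3K4 methyltransferases were above 0, 3 of them at an unadjusted p under 0.05, with a median of 0.30. Of all features, 39% were above 0 and 3.89% were higher at that threshold. The mean of these 6 genes, each relative to its own mean over the arrays, was 0.11, 0.10 and 0.08 on the KO arrays, against -0.31, 0.05 and -0.03 on the WT arrays. The lowest of these is WT replicate 1.

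All 5 H3K36 methyltransferases had a difference above 0, and 4 of the 5 had no overlap between the groups, beside 39% of all features above 0 and 7.14% without overlap and higher in KO pituitaries. Setd2, the enzyme responsible for most H3K36 trimethylation, had levels of 2.18, 2.08 and 2.21 in KO pituitaries, against 1.46, 1.99 and 1.68 in WT pituitaries, a difference of 0.45 ± 0.16 (adjusted p = 0.355). The KO values lay above all 3 WT values, though KO replicate 2 and WT replicate 2 were less than 0.1 apart. Ash1l, which methylates H3K36 and opposes Polycomb silencing, read -0.10, 0.03 and 0.05 in KO pituitaries, against -0.91, -0.23 and -0.42 in WT pituitaries, at 0.51 ± 0.19 (adjusted p = 0.361). Without WT replicate 1, the lowest of the 6, it was 0.32. Nsd1, which dimethylates H3K36, measured 3.02, 2.98 and 3.09 in KO pituitaries, against 2.53, 2.73 and 2.85 in WT pituitaries, at 0.33 ± 0.13 (adjusted p = 0.376). A second, dimmer Nsd1 probe did not share this difference and read -0.02.

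Of the other NSD enzymes, Nsd3 stood at 1.34, 1.45 and 1.51 in KO pituitaries, against 1.28, 1.20 and 1.32 in WT pituitaries on its brightest probe, a difference of 0.17 ± 0.12 (adjusted p = 0.534). Its other probes read 0.21 and 0.53, so all 3 lay above 0 with unequal size. Nsd2 had levels of -0.15, -0.02 and -0.17 in KO pituitaries, against -0.17, -0.30 and -0.14 in WT pituitaries, with overlap and at 0.09 ± 0.12 (adjusted p = 0.734), and its other 3 probes read 0.05, 0.24 and 0.42. The mean of the 5 genes relative to their own means was 0.11, 0.16 and 0.19 on the KO arrays, against -0.31, -0.07 and -0.09 on the WT arrays. The KO and WT means did not overlap, and WT replicate 1 was again the lowest.

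The H3K9 methyltransferases had no common direction: 3 of 6 lay above 0 and 3 below. Prdm2, a zinc finger enzyme that methylates H3K9, had levels of -1.68, -1.51 and -1.57 in KO pituitaries, against -1.75, -1.90 and -2.02 in WT pituitaries, higher in every KO array, by 0.30 ± 0.13 (adjusted p = 0.388). A further Prdm2 probe was well above background on only 1 array and was not tested. Suv39h2, which with Suv39h1 trimethylates H3K9 at heterochromatin around centromeres, measured 3.30, 3.32 and 3.18 in KO pituitaries, against 3.60, 3.40 and 3.80 in WT pituitaries, lower in every KO array, at -0.33 ± 0.14 (adjusted p = 0.39). Its second probe, too, was well above background on 1 array only. The Suv39h2 difference was -0.46 in slide row 1 and -0.07 in slide row 2. Setdb1, which trimethylates H3K9 at retroelements together with Trim28, differed by 0.37 ± 0.16 (adjusted p = 0.394), and its KO values all lay above its WT values. KO replicate 2 and WT replicate 2 were nearly equal for Setdb1, at -1.380 and -1.387. The Setdb1 difference was 0.56 in slide row 1 and 0.01 in slide row 2. Suv39h1 differed by -0.50 ± 0.24 with overlapping groups, and by -0.85 in slide row 1 and 0.21 in slide row 2. The dimethylating enzymes Ehmt1 and Ehmt2 differed by -0.23 ± 0.13 and 0.05 ± 0.13, both with overlap, and the 2 probes of Ehmt1 read -0.23 and 0.23.

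Among the readers of methylated H3K9, Mphosph8 had the only unadjusted p under 0.05 and the highest difference of all 47 genes. Mphosph8, the chromodomain subunit of the HUSH silencing complex, had levels of 1.87, 2.04 and 2.10 in KO pituitaries, against 1.06, 1.60 and 1.66 in WT pituitaries. Its KO values were all above its WT values, at 0.56 ± 0.19 (adjusted p = 0.338), and the KO signal was 148% of the WT signal, with a 95% confidence interval of 109 to 201%. Without WT replicate 1, the lowest of the 6, the difference was 0.38. The HP1 genes did not share this pattern. Cbx1, which encodes HP1 beta, stood at -3.30, -3.21 and -3.18 in KO pituitaries, against -3.41, -2.98 and -2.84 in WT pituitaries, at -0.16 ± 0.17 (adjusted p = 0.687). Cbx3, which encodes HP1 gamma, measured 3.80, 3.98 and 3.88 in KO pituitaries, against 4.03, 3.70 and 4.26 in WT pituitaries, at -0.11 ± 0.17 (adjusted p = 0.771), and its second probe read -0.09. Cbx5, which encodes HP1 alpha, differed by -0.03 ± 0.13 on its brighter probe and -0.07 on the other, and Trim28, the corepressor that links zinc finger proteins to Setdb1 and HP1, by 0.09 ± 0.14. All 4 had overlapping groups.

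Polycomb repressive complex 2, which methylates H3K27, held the gene with the lowest difference. Ezh2, its catalytic subunit in dividing cells, had levels of -2.76, -2.76 and -2.57 in KO pituitaries, against -2.30, -2.34 and -1.41 in WT pituitaries. The KO values were all lower, and WT replicate 3 stood well above the other WT arrays. The difference was -0.68 ± 0.26 (adjusted p = 0.365), and the KO signal was 62.5% of the WT signal, with a 95% confidence interval of 40.9 to 95.5%. Without WT replicate 3 it was -0.38 ± 0.14 with an adjusted p of 0.368, and in the authors' deposited table it was -0.29. Suz12, a core subunit that the complex needs to be stable, measured 0.39, 0.56 and 0.52 in KO pituitaries, against 0.74, 0.70 and 0.64 in WT pituitaries, lower in every KO array, at -0.20 ± 0.12 (adjusted p = 0.478). With median centring, where all features also moved up, the Suz12 difference was -0.02. Ezh1, the catalytic subunit that prevails in resting cells, read 2.54, 2.56 and 2.68 in KO pituitaries, against 2.55, 2.46 and 2.28 in WT pituitaries, with overlap, at 0.16 ± 0.13 (adjusted p = 0.582), and a second probe read 0.29. A further Ezh1 probe, well above background on 2 KO arrays and 1 WT array, read 0.17 ± 0.71 and so does not bear on the direction. Eed, the subunit that binds trimethylated H3K27, differed by -0.02 ± 0.13.

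The mean level of markers of dividing cells was, like Ezh2, lower on the KO arrays and highest on WT replicate 3. Of the 16 listed, 13 were tested and all 13 were lower in KO pituitaries, with a median of -1.18, 7 of them at an unadjusted p under 0.05 and none past the adjusted threshold. Of all features, 16397 of 26887 lay below 0 and 8.92% were lower at the unadjusted threshold. Their mean, each gene relative to its own mean, was -0.47, -0.87 and -0.49 on the KO arrays, against 0.06, 0.28 and 1.49 on the WT arrays. Top2a, a topoisomerase of dividing cells that was well above background on 2 of the 3 KO arrays and all 3 WT arrays, had levels of -4.68, -5.30 and -4.40 in KO pituitaries, against -3.49, -2.58 and -0.55 in WT pituitaries, and Birc5, a mitotic survival protein, -1.22, -2.21 and -1.16 in KO pituitaries, against 0.14, 0.29 and 2.45 in WT pituitaries. Uhrf1, which reads methylated H3K9 and guides DNA methylation in S phase, was likewise highest on WT replicate 3, with -2.49, -3.21 and -2.98 in KO pituitaries, against -1.47, -2.18 and 0.57 in WT pituitaries, a difference of -1.87 ± 0.66 (adjusted p = 0.349). Of 8 neutrophil markers 7 were tested, all below 0 and none past the adjusted threshold, and they had a list mean of -0.60, -0.80 and -0.36 on the KO arrays, against -0.20, -0.16 and 2.12 on the WT arrays. The part of either cell type in the Ezh2 result was not tested.

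**Figure D4:**
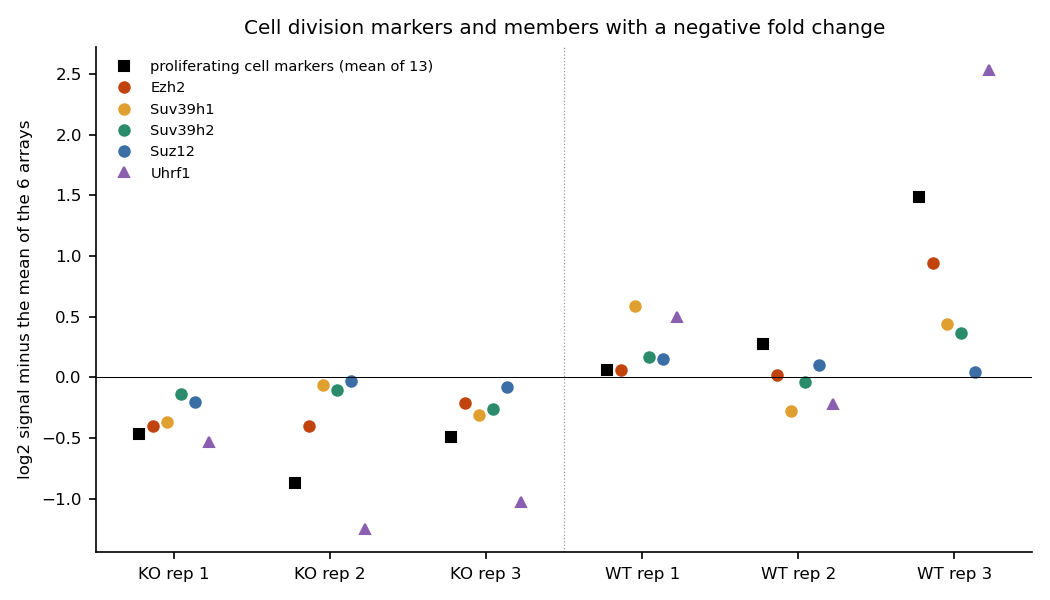
Mean of the 13 tested markers of dividing cells (squares), levels of Ezh2, Suv39h1, Suv39h2 and Suz12 (circles) and of Uhrf1 (triangles) on each array, in log2 relative to the mean of the 6 arrays, with KO arrays left of WT arrays. On WT replicate 3 the marker mean, at 1.49, Ezh2, Suv39h2 and Uhrf1 each have their highest value, while Suv39h1 and Suz12 are highest on WT replicate 1.

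The promoters of Ezh2, Suz12 and Suv39h2, which are among the 5 genes lower in every KO array, are shown because each contains a binding motif of E2F, the transcription factor family of the cell cycle. The promoter of Kmt2c, the gene with the smallest p, is shown beside them and contains none. They were chosen after their values were seen, and the part of E2F in these differences was not tested. The windows run from 250 bases before to 50 bases after the annotated start of RefSeq (GRCm38.p6), 5′ to 3′ on the strand of the gene, and capitals mark the motif.
Ezh2 (chr6:47594981-47595280, minus strand): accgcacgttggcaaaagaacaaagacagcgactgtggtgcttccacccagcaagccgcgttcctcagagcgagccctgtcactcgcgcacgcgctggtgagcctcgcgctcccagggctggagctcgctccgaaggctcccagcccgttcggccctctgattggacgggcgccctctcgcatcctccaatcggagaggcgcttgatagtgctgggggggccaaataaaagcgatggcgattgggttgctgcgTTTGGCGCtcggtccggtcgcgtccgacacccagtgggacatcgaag
Suz12 (chr11:79992856-79993155, plus strand): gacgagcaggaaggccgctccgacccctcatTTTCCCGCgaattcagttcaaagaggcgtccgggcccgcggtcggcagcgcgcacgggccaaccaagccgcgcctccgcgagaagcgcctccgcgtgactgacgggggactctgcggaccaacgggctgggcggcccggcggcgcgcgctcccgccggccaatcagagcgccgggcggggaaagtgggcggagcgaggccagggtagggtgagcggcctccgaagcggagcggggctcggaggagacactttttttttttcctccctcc
Suv39h2 (chr2:3474937-3475236, minus strand): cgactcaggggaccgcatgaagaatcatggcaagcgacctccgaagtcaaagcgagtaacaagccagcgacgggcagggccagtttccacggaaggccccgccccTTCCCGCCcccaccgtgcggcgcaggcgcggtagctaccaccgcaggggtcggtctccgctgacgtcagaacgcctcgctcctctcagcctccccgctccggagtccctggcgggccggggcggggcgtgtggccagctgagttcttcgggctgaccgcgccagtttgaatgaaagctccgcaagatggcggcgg
Kmt2c (chr5:25498734-25499033, minus strand): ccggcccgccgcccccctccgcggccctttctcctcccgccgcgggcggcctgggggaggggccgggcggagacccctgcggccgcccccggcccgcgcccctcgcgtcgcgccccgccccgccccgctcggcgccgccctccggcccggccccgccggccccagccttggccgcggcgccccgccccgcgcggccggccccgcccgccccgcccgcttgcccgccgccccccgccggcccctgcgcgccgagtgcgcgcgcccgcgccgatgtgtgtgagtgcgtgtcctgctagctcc
Motif letters searched were TTTCCCGC, TTTGGCGC and TTCCCGCC on both strands, the first and the last of which overlap. The matches lie at bases 254 to 261 of the window in Ezh2, 32 to 39 in Suz12 and 106 to 113 in Suv39h2. Of the 49 genes, 37 had a promoter in the table and 5 of these (13.5%) held a motif, Cbx3 and Trim28 being the others. Cbx3 and Trim28 had overlapping groups, with differences of -0.11 and 0.09. Setd1a and Kdm6a, the other members lower in every KO array, had a promoter with 0 motif sites. The share over all genes of the table was 3.69%, or 997 of 27025. None of the 5 promoters found for the 9 genes higher at an unadjusted p under 0.05 held one. At a share of 3.69%, 5 promoters are too few to tell those genes from the rest. Of the markers of dividing cells, 2 of 14 held one. The Kmt2c window was 88% G and C, against 64.3% for Ezh2, 71% for Suz12 and 68.3% for Suv39h2.

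For the methyltransferases of other positions no gene reached an unadjusted p under 0.05. Kmt5a, which monomethylates H4K20 and is regulated through the cell cycle, had levels of -0.98, -1.19 and -0.93 in KO pituitaries, against -1.91, -1.28 and -1.12 in WT pituitaries, at 0.40 ± 0.22 (adjusted p = 0.466), and its second probe read -0.30, the other direction. Without WT replicate 1 the Kmt5a difference was 0.16. Dot1l, the H3K79 methyltransferase, measured -0.40, -0.10 and 0.21 in KO pituitaries, against -0.33, -0.21 and -0.32 in WT pituitaries, at 0.19 ± 0.17 (adjusted p = 0.628). Of the SMYD enzymes, which methylate histones and other proteins, Smyd2 stood at 3.88, 4.18 and 4.02 in KO pituitaries, against 4.16, 4.08 and 4.55 in WT pituitaries, at -0.23 ± 0.17 (adjusted p = 0.551). Smyd3 read -0.83, -0.88 and -0.90 in KO pituitaries, against -1.04, -0.86 and -1.24 in WT pituitaries, at 0.18 ± 0.14 (adjusted p = 0.578), with other probes at 0.19 and 0.15. Smyd5 differed by 0.03 ± 0.14. The groups overlapped for all 5 of these genes.

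Among the erasers, the JmjC demethylases of H3K9 outside the Kdm4 family held both genes with an unadjusted p under 0.05. Phf8, which demethylates H3K9 and H4K20 at promoters and binds methylated H3K4, had levels of 2.54, 2.55 and 2.44 in KO pituitaries, against 2.04, 2.22 and 2.12 in WT pituitaries. The groups were apart, at 0.38 ± 0.12 (adjusted p = 0.317), and the KO signal was 130% of the WT signal, with a 95% confidence interval of 108 to 158%. Its other probes, each well above background on 4 arrays, read 0.13 and -0.04. Phf2, its relative, measured -0.38, -0.22 and -0.17 in KO pituitaries, against -0.87, -0.43 and -0.76 in WT pituitaries, without overlap and at 0.43 ± 0.15 (adjusted p = 0.354). Kdm3a, which demethylates mono- and dimethylated H3K9, stood at 0.61, 0.66 and 0.74 in KO pituitaries, against 0.36, 0.57 and 0.40 in WT pituitaries, higher in every KO array, by 0.23 ± 0.12 (adjusted p = 0.45). Kdm3b, a relative with the same substrates, read -2.05, -2.17 and -1.98 in KO pituitaries, against -1.99, -1.73 and -1.44 in WT pituitaries, at -0.35 ± 0.17 (adjusted p = 0.419) and with overlap. Its second probe was well above background on none of the arrays. Jmjd1c differed by 0.26 ± 0.15 and Kdm7a by -0.13 ± 0.19, both with overlap, and the second Kdm7a probe read -0.23. In this group 4 of 6 genes were above 0, 2 of them at an unadjusted p under 0.05, with a median of 0.25. Of all features, 39% were above 0 and 3.89% were higher at that threshold.

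Of the 5 H3K4 demethylases, 2 had KO values all above their WT values, against 7.14% of all features, and the other 3 were near 0. Kdm1b, a flavin-dependent enzyme known for its part in oocyte imprinting, had levels of 1.04, 1.13 and 1.02 in KO pituitaries, against 0.80, 0.89 and 0.40 in WT pituitaries. All KO values were above the WT values, at 0.37 ± 0.16 (adjusted p = 0.394), and WT replicate 3 was the lowest. Without that array the difference was 0.22. Kdm5b, which removes H3K4 trimethylation, measured 4.17, 4.12 and 4.11 in KO pituitaries, against 4.08, 3.83 and 4.04 in WT pituitaries, without overlap, at 0.15 ± 0.12 (adjusted p = 0.588), and its other probe read 0.17. Kdm1a, the enzyme known from pituitary development, differed by 0.03 ± 0.12, Kdm5a by -0.01 ± 0.12 and Kdm5c by 0.03 ± 0.12, all 3 with overlap. The 95% confidence interval of the Kdm1a difference allowed a KO signal of 83.7 to 124% of the WT signal.

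The Kdm2 enzymes remove dimethylation from H3K36. Kdm2a had levels of 1.1, 1.002 and 1.018 in KO pituitaries, against 0.906, 0.996 and 0.758 in WT pituitaries, higher in every KO array, though KO replicate 2 and WT replicate 2 were nearly equal, at 0.15 ± 0.12 (adjusted p = 0.584). Its second probe read 0.38. Kdm2b stood at 2.08, 2.04 and 2.05 in KO pituitaries, against 2.03, 2.03 and 2.04 in WT pituitaries, at 0.02 ± 0.11 (adjusted p = 0.935), and its second probe read 0.04. Of the H3K27 demethylases, Kdm6a, which escapes X inactivation, read -0.33, -0.36 and -0.34 in KO pituitaries, against -0.13, 0.08 and -0.28 in WT pituitaries, lower in every KO array, at -0.24 ± 0.13 (adjusted p = 0.474). Kdm6b, which is induced in many stress and immune responses, measured 1.45, 1.80 and 1.61 in KO pituitaries, against 1.28, 1.43 and 1.66 in WT pituitaries, with overlap, at 0.16 ± 0.16 (adjusted p = 0.645). Jmjd6, a JmjC protein best known as a lysine hydroxylase, had levels of -0.05, 0.23 and 0.12 in KO pituitaries, against 0.00, -0.17 and 0.15 in WT pituitaries, at 0.11 ± 0.14 (adjusted p = 0.733).

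Probes of the same gene often gave unequal values. Of the 47 genes, 17 had more than 1 tested probe, and for 12 of these all probes had 1 sign. Signs were mixed for Ehmt1, Kmt2d, Kmt5a, Nsd1 and Phf8. The median gap between the highest and the lowest probe of these 17 genes was 0.13. Of the 10 genes with an unadjusted p under 0.05, 7 rested on 1 tested probe.

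**Figure D5:**
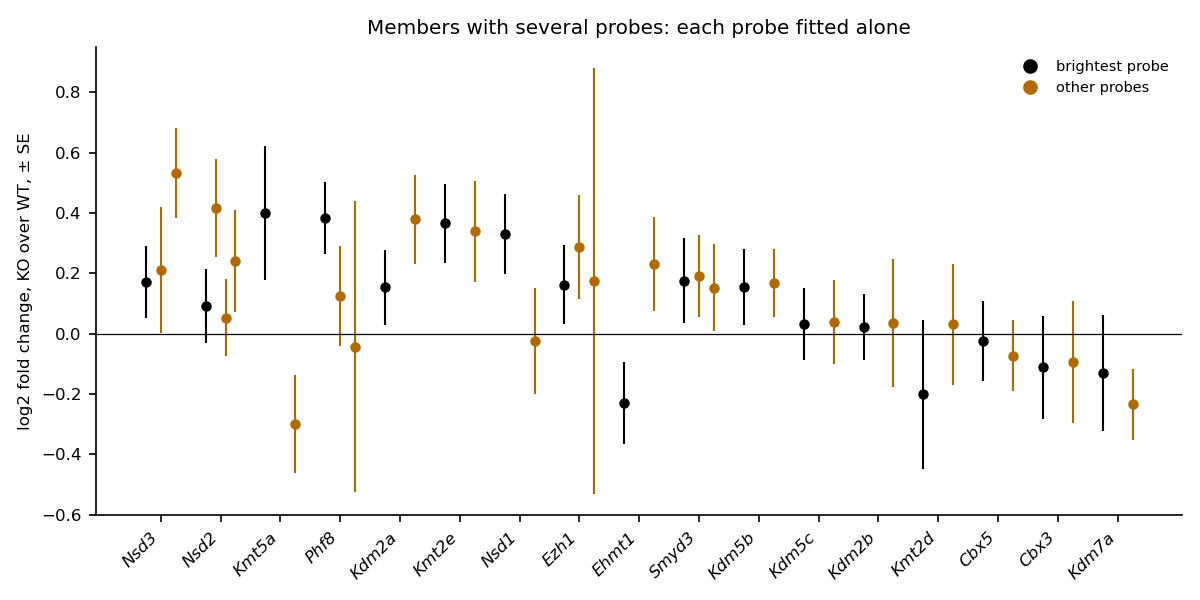
Log2 fold change (KO over WT) with its SE for every tested probe of the 17 genes with more than 1, each probe fitted alone, the brightest in black and the others in orange. Points of 12 genes fall on 1 side of 0, and those of Ehmt1, Kmt2d, Kmt5a, Nsd1 and Phf8 on both.

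Among the 47, the genes higher in KO pituitaries at an unadjusted p under 0.05 tended to span more of the genome than the rest. The 9 with an unadjusted p under 0.05 had a median span of 86.1 kb, against 42.2 kb for the 16 below 0 and 44.8 kb for the other 22 above 0. Over all named genes the difference also followed span: the median was -0.11 over the 4117 genes of shortest span and 0.05 over the 4115 of longest span. The set of longest span held 22 of the 47 genes, and 7 of them were higher at an unadjusted p under 0.05, against 8.29% of all named genes there. Across the 47 genes the Spearman correlation of difference and span was 0.24, and across 16461 named genes it was 0.22. These correlations are over genes that share the same 6 arrays. The part of gene length in these results was not tested.

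Of 98 listed genes that work beside the 47, 93 were tested and 0 were called. At an unadjusted p under 0.05, 9 were higher and 4 were lower in KO pituitaries, beside 3.89% and 8.92% of all features, and the median difference was 0.06. Among the partners of the H3K4 methyltransferase complexes, 2 of 11 were higher at that threshold. Rbbp5, a core subunit that activates these enzymes, had levels of -0.69, -0.80 and -0.61 in KO pituitaries, against -1.18, -0.97 and -1.23 in WT pituitaries, at 0.43 ± 0.13 (adjusted p = 0.317). Cxxc1, which guides the Setd1 complexes to CpG islands, measured 0.04, -0.14 and 0.10 in KO pituitaries, against -0.52, -0.32 and -0.38 in WT pituitaries, at 0.40 ± 0.13 (adjusted p = 0.331). Paxip1 differed by -0.38 ± 0.21.

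The corepressors of the Kdm1a complex had differences of opposite sign. Rcor1, which tethers Kdm1a to nucleosomes, stood at 2.40, 2.40 and 2.44 in KO pituitaries, against 1.81, 2.09 and 1.87 in WT pituitaries, at 0.49 ± 0.12 (adjusted p = 0.281). Rcor2, its paralog, read 0.85, 1.30 and 1.07 in KO pituitaries, against 2.17, 1.36 and 1.98 in WT pituitaries, at -0.76 ± 0.24 (adjusted p = 0.33). The groups were apart for both, the KO values above for Rcor1 and below for Rcor2. Phf21a, which reads unmethylated H3K4 in the same complex, differed by 0.22 ± 0.14.

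In Polycomb repressive complex 1, which binds methylated H3K27, 1 of 17 tested genes was higher and 2 were lower at an unadjusted p under 0.05, with 3.89% of all features higher and 8.92% lower, so that these counts do not set the complex apart. Ring1, a ubiquitin ligase subunit, had levels of -1.240, -1.104 and -1.117 in KO pituitaries, against -0.751, -0.815 and -0.821 in WT pituitaries, at -0.36 ± 0.11 (adjusted p = 0.331). Bmi1 differed by 0.28 ± 0.11 and Cbx8, a chromodomain subunit, by -0.59 ± 0.24. Of the 7 accessory genes of Polycomb repressive complex 2, none reached that threshold, and Aebp2 differed by 0.30 ± 0.15, Phf19 by -0.36 ± 0.19 and Rbbp4 by -0.24 ± 0.15. Among 16 heterochromatin partners, Uhrf2 differed by 0.45 ± 0.15, Smarca5, a chromatin remodeller, by 0.38 ± 0.13, and Uhrf1 is given above.

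Of 18 tested readers of other methylated lysines, 14 were above 0, against 39% of all features. Ing2, which reads trimethylated H3K4 in a deacetylase complex, measured -0.86, -1.02 and -0.78 in KO pituitaries, against -1.63, -1.24 and -1.91 in WT pituitaries, at 0.71 ± 0.19 (adjusted p = 0.295). Bptf, which reads the same mark in a remodelling complex, stood at 4.09, 4.06 and 4.19 in KO pituitaries, against 2.96, 3.68 and 3.65 in WT pituitaries, at 0.68 ± 0.21 (adjusted p = 0.33). The KO values of both lay above all WT values. Chd4 differed by 0.26 ± 0.14. Among 14 further writers and erasers, Hr, a JmjC protein that demethylates H3K9, read 2.08, 1.67 and 1.93 in KO pituitaries, against 1.61, 1.39 and 1.39 in WT pituitaries, at 0.43 ± 0.15 (adjusted p = 0.348), while Kdm8 differed by -0.26 ± 0.15. The Prdm9 probe was well above background on 1 KO array and 2 WT arrays, and its difference is not given.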

How the data were processed

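Pituitary RNA of 3 KO and 3 WT mice was measured on 1-colour Agilent arrays. Per the file headers, the deposited files hold spot intensity from Agilent Feature Extraction 11.0.1.1, already background-subtracted, on a design of genome build mm9. A deposited table holds the authors' log2 values for the same arrays, which correlate with the scanner brightness at 0.997 to above 0.999 and share a median of about 8.3; its scale is log2, no label or header states its exact normalization, and limma is named in the submitters' processing notes.

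From the processed intensity, log2 values minus the 75th percentile of each array were computed, flagged outlier spots were left out except for 5 values of a probe on an array where every spot was flagged, spots of a probe were averaged, and a probe was kept if 3 or more arrays had it well above background. Genes were named by matching the RefSeq accession of a probe to a RefSeq table of GRCm38.p6 (27656 probes, 20972 symbols), and the brightest probe stood for a gene. KO was compared with WT in limma 3.58.1 (R 4.3.3), two-sided, with Benjamini-Hochberg adjustment over 26887 features and a threshold of 0.05. The procedure was tested on simulated data. The small number of arrays, 3 a group, limits the precision. Each array came from a separate animal.

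The genes and lists were chosen with earlier results of these data known. Per-array values are given for every gene with an unadjusted p under 0.05 and, in each role group, for up to 2 further genes with the smallest p, and of each partner list for up to 3 genes. The alternatives were other scalings, background correction, filters, probe rules and variance models, the authors' table, slide row, replicate number and leaving out each array. Protein sequences were not used here.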

Additional observations from a re-analysis of the deposited data

How the results depend on the processing

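No gene of the 47 passed an adjusted p of 0.05 under any alternative run, and Kdm4a stayed below 0 in all of them, between -0.70 and -0.44, without passing. Of all features, 19 passed with median centring, 21 with normexp background correction, 27 in the authors' table, 11 with only probes well above background on all 6 arrays and 27 with a variance trend and robust fitting, while 15 passed at an adjusted p under 0.1. Leaving out each array in turn gave 0 to 1 passing features and a median of the 47 genes between 0.049 and 0.134. That median was 0.29 with median centring, where all features also moved up. With the replicate block, 0 of the 47 genes and 0 features passed, and 6 of the 47 were higher and 1 was lower at an unadjusted p under 0.05, against 3.17% and 7.49% of all features. After each group's mean was subtracted, same-numbered KO and WT arrays correlated at 0.15, -0.18 and -0.08. Arrays of unlike number correlated at -0.14 to 0.21. With 3 arrays centred in each group these values are not free of each other, so they cannot show whether the numbers pair littermates. At that unadjusted threshold, normexp correction gave 15 higher and 4 lower, against 7.27% and 5.79% of all features, array weights 12 higher and 3 lower, against 4.88% and 9.44%, and slide row 1 alone 7 higher and 2 lower, against 5.38% and 9.13%. The counts without overlap between groups were added as a measure after seeing the data, and were 16 to 22 higher and 0 to 10 lower across the alternatives, against 5.41% to 19.3% and 3.38% to 30.03% of all features. Single arrays also moved genes with an unadjusted p above 0.05. Dot1l was 0.04 without KO replicate 3, Kmt2d 0.04 and Kdm6a -0.14 without WT replicate 2, and Kdm3b -0.21 and Smyd2 -0.09 without WT replicate 3. In slide row 2, with 1 array a group, there was no test. The cause of these shifts was not tested. Of the 47 genes, 3 were among the 6722 dimmest features tested, where a probe's signal limits the precision most.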
